A study of Homo sapiens with 6 samples.

Results

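The genes described here encode the proteins that open replication origins and copy DNA at the fork, other than the MCM subunits of the helicase. The 40 genes were chosen by name from a table of 30483 genes, and each was found in it once. They comprise 8 genes of origin licensing, 5 partners of the MCM helicase, 9 subunits of the polymerases and primase, 6 of the sliding clamp and its loader, 3 of the single-strand binding protein RPA, 3 for processing and ligating lagging-strand fragments, 2 of the chromatin assembly factor CAF-1 and 4 that protect or couple the fork. RNA was sequenced from A549, a human cell line derived from an adenocarcinoma of the lung, in 3 libraries of cells given 5 µM anlotinib for 48 h and 3 libraries of cells given DMSO, the solvent. All cells grew in RPMI-1640 with fetal bovine serum and antibiotics, and the labels name no genetic change in either group. Anlotinib is a small molecule that blocks a number of growth factor receptor kinases. The series asked which pathways carry the effect of the drug on pressure in the tumor stroma, and treatment was its one contrast. The labels do not say whether the 3 libraries of a group came from separate cultures, so a p-value here reflects the spread between libraries alone, which may be technical.

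As background, origins are marked in G1 when the origin recognition complex ORC, with CDC6 and CDT1, loads inactive MCM rings onto DNA. In S phase CDC45 and the GINS complex join MCM to form the active helicase, polymerase alpha-primase lays down primers, and polymerases epsilon and delta extend the leading and the lagging strand on the clamp PCNA, which the RFC complex loads. Many of these genes are transcribed on entry into S phase under E2F factors, and in proliferating tumor lines such as A549 they are expressed as part of the dividing state.

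The libraries held 13886120 to 15386107 reads assigned to genes. Values are normalized counts, that is, reads divided by 1 size factor per library, and 1 read was worth 0.887 to 1.07 of them. All 40 genes passed the minimum mean of 10 normalized counts, and the fewest reads for any of them in a library were 31, for POLA2. Of 6 epithelial markers, 5 were tested. KRT7, the most abundant, was 2.04-fold lower with anlotinib (limma adjusted p = 0.000354), KRT19 was 2.44-fold higher (limma adjusted p = 0.000186) and CDH1 1.45-fold higher (limma adjusted p = 0.0171), while KRT8 and KRT18 did not pass and EPCAM had a mean under 10 in each group. Their sum ran from 71598 to 75096 normalized counts with DMSO and from 38597 to 57434 with anlotinib. Of 6 alveolar type II cell markers, ABCA3 and NKX2-1 were tested and did not pass, SFTPB, SFTPC and SFTPD had means under 10 in each group, and SFTPA1 was not in the table. Their sum was 2138 to 2603 with DMSO and 1558 to 2663 with anlotinib. Of the markers of other cell types, 4 had a mean of at least 10: COL1A1 and THY1 for fibroblasts, KDR for endothelium and CD14 for blood. The summed fibroblast markers ran from 2173 to 2943 normalized counts with DMSO and from 452 to 734 with anlotinib, mostly COL1A1. COL1A1 and THY1 were lower with anlotinib. PDGFRB, DCN and LUM had higher means with anlotinib but were below the minimum mean of 10 and were not tested. DCN and LUM were near 0, and PDGFRB had a mean of 3.11 with DMSO and 11.4 with anlotinib. The endothelial sum was 8.16 to 14.4 and 11.1 to 23.1, and the blood sum 58.2 to 90.4 and 79.8 to 90.8, in the same order. Their part in the results below was not tested. On the first component of variation (57.9% of the variance) anlotinib replicate 1 lay nearest to the DMSO libraries, with a score of 19.1, and replicates 2 and 3 had scores of 36.2 and 41.0.

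Origin and fork genes were lower after anlotinib at every step of replication. Of the 40 genes, 36 fell, 0 rose and 4 did not pass (limma on log2 values, Benjamini-Hochberg adjusted p under 0.05 over all 15734 genes tested). Among all genes tested 12.7% were lower and 10.5% higher by the same rule. The median log2 fold change of the 40 genes was -1.16, against -0.02 for all genes tested. At least 2-fold decreases that passed were found for 24 of the 40 genes, against 2.31% of all genes tested. The steepest were GINS2 and CLSPN, at 4.95-fold and 4.61-fold lower, and the genes that did not pass were ORC2, ORC4, ORC5 and POLD2. For 38 of the 40 genes every anlotinib library lay below every DMSO library, which held for 21.4% of all genes tested. In bulk RNA, fewer cells in S phase and less RNA of these genes per cell cannot be told apart. The authors' deposited table lists the same counts at an adjusted p under 0.05, with 36 lower and 0 higher.

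**Figure D1:**
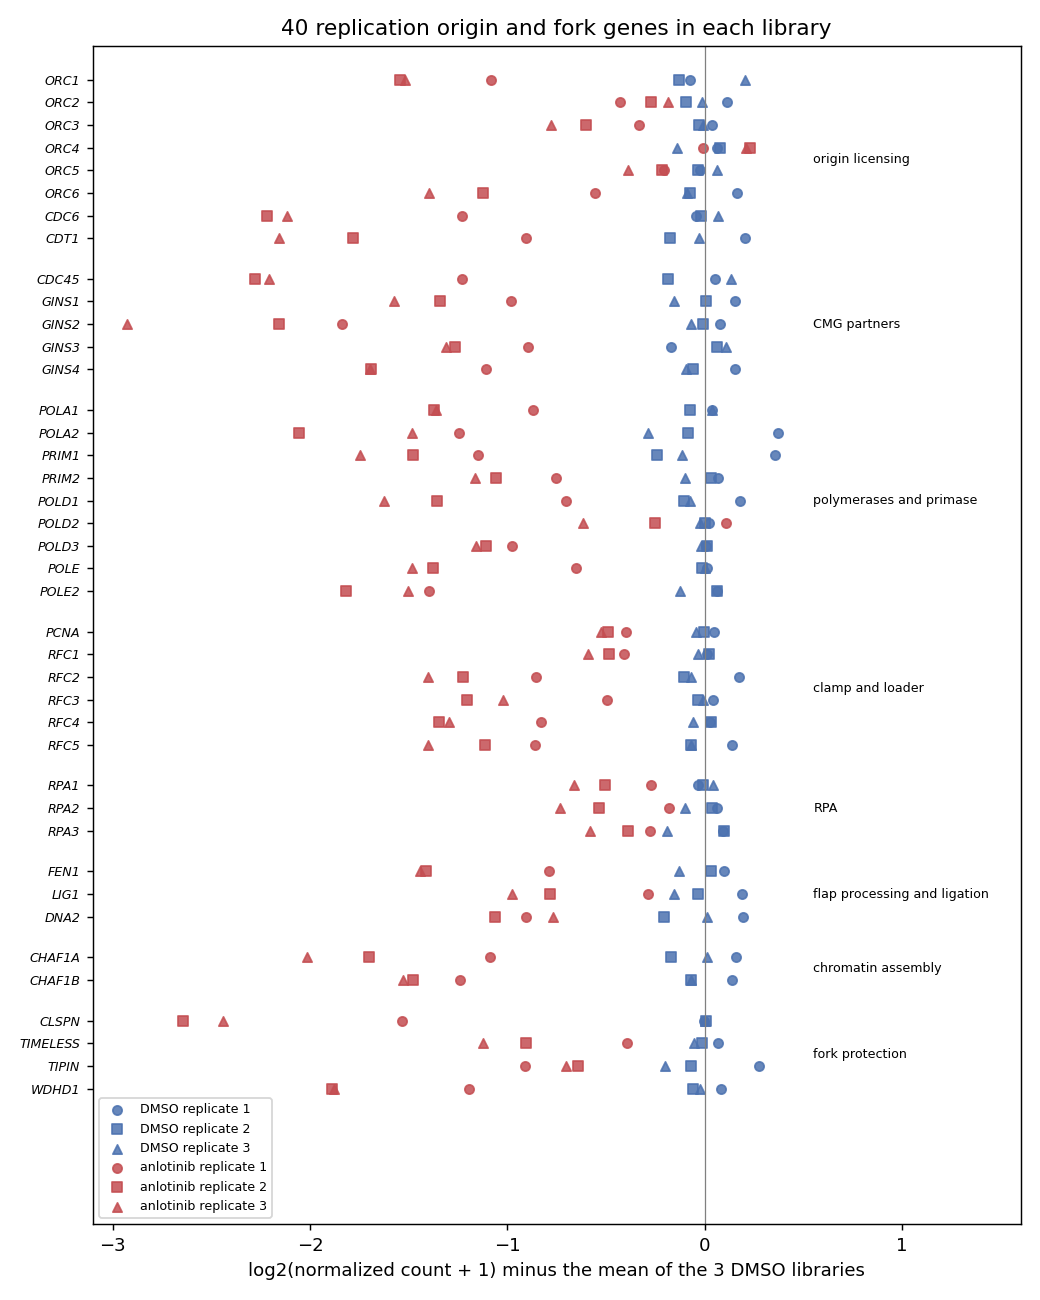
Level of each of the 40 genes in each library, as log2(normalized count + 1) minus the mean of the DMSO libraries; blue points are DMSO, red points anlotinib, and shapes mark the replicate numbers. Red points lie left of all blue points for 38 of the 40 genes, and the red circle, anlotinib replicate 1, is usually the red point nearest to 0.

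The drop had the same direction in the 3 anlotinib libraries but not the same size. The median gene of the 40 stood at -0.86, -1.24 and -1.38 on the log2 scale against the DMSO mean in anlotinib replicates 1, 2 and 3. The 3 DMSO libraries stood at 0.07, -0.03 and -0.05. Anlotinib replicate 1 held the highest of the 3 anlotinib values for 36 of the 40 genes, against 42.1% of all genes tested and 70.8% of all genes that fell. By role, the medians in the same libraries were -1.11, -1.69 and -1.69 for the partners of MCM and -0.27, -0.51 and -0.66 for RPA. The number of genes that passed was 33 without DMSO replicate 1, the lowest count with any 1 library left out, and 38 without anlotinib replicate 1, the highest. Summed over the 40 genes, the DMSO libraries held 38571, 35896 and 35724 normalized counts, and the anlotinib libraries 24502, 19169 and 17547.

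Of the 8 licensing genes 5 fell, led by the loading factors and ORC1, and 3 ORC subunits did not pass. CDC6, the ATPase that recruits MCM to ORC (chromosome 17, 40287633 to 40304657), had 1146, 1168 and 1238 normalized counts with DMSO and 504, 254 and 272 with anlotinib. Every DMSO library held more than 2 times the highest anlotinib library, and the gene was 3.61-fold lower (log2 fold change -1.85, SE 0.20, limma adjusted p = 4.06e-05). CDT1, the other loading factor, was 3.06-fold lower, at 375 ± 176 against 1083 ± 145 (SD, n = 3 per group, limma adjusted p = 0.000413). ORC1, the ORC subunit whose protein comes and goes with the cell cycle in human cells, had 479, 461 and 580 against 237, 172 and 176. Its groups were far apart, with a 2.61-fold decrease (log2 fold change -1.38, SE 0.14, limma adjusted p = 3.09e-05). ORC6, the smallest subunit, was 2.03-fold lower (limma adjusted p = 0.00123), and ORC3, a core subunit, 1.49-fold lower (limma adjusted p = 0.00553).

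The ORC subunits 2, 4 and 5 did not pass. ORC4 (chromosome 2, 147930397 to 148021604) had 539, 545 and 468 normalized counts with DMSO and 513, 605 and 596 with anlotinib. The groups overlapped, and its log2 fold change of 0.14 had a 95% interval from -0.09 to 0.37 (limma adjusted p = 0.362). A decrease of 1 log2 unit lies outside that interval. ORC2 stood at -0.30 (interval -0.52 to -0.07, limma adjusted p = 0.0573) and ORC5 at -0.27 (interval -0.49 to -0.06, limma adjusted p = 0.0664), each with anlotinib libraries below all DMSO libraries. ORC2 passed with TMM scaling (adjusted p = 0.0474) and without anlotinib replicate 3 (adjusted p = 0.0282), and ORC5 without anlotinib replicate 1 (adjusted p = 0.029).

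**Figure D2:**
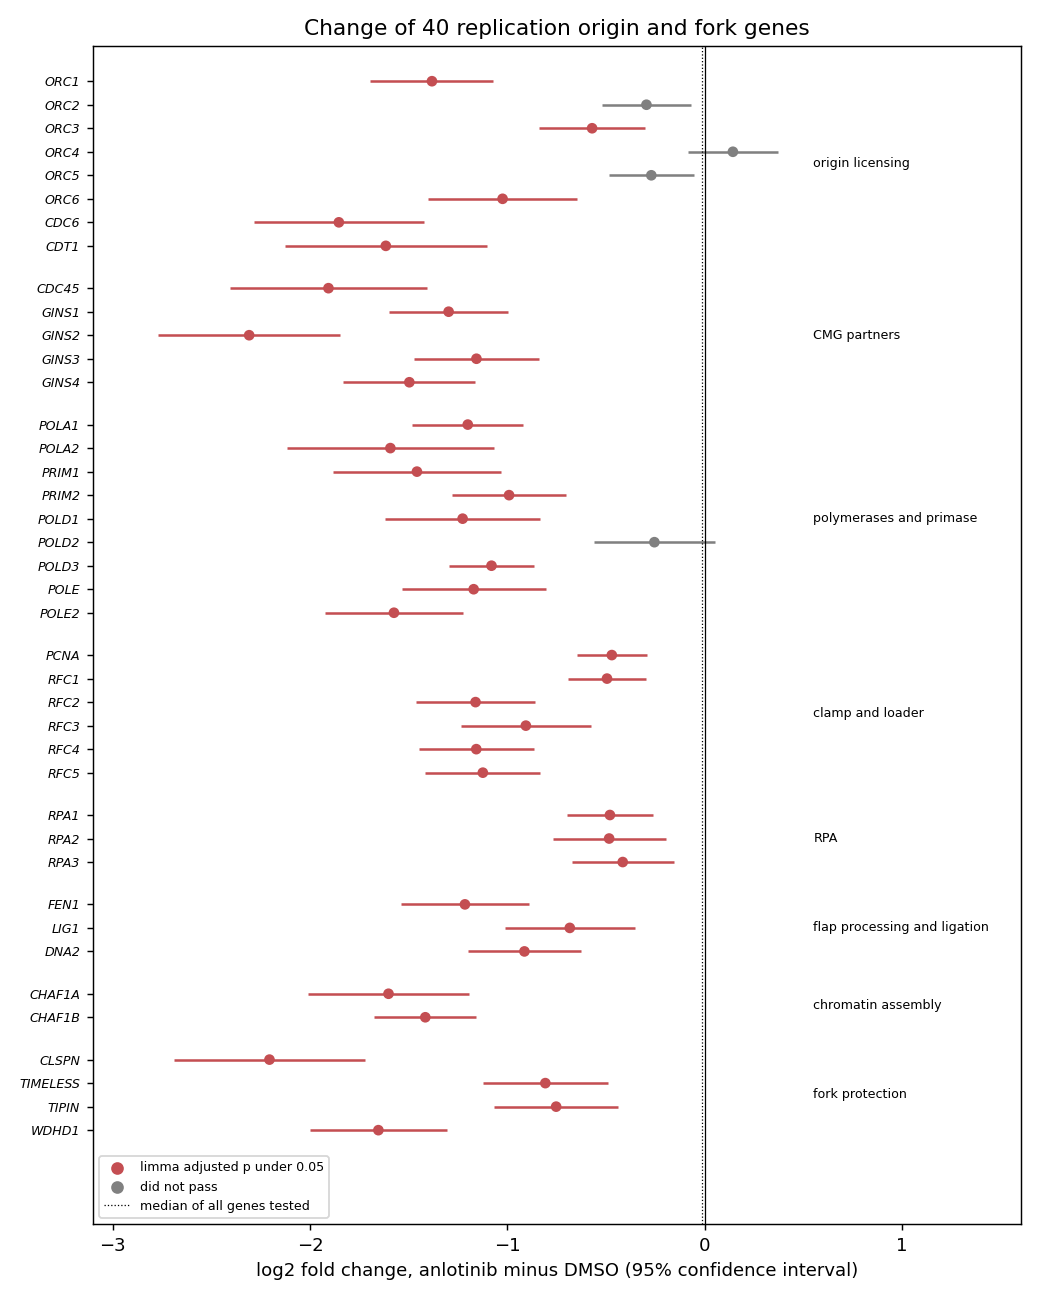
Log2 fold change of each gene, anlotinib minus DMSO, with its 95% confidence interval from limma; red genes passed and grey genes did not. Intervals of CLSPN and GINS2 lie left of -1.7, those of RPA1, RPA2 and RPA3 lie between -0.8 and -0.1, and the dotted line is the median of all genes tested, -0.02.

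Every partner of MCM in the active helicase fell. GINS2, a subunit of the 4-protein GINS ring (chromosome 16, 85676198 to 85690073), had 670, 630 and 605 normalized counts with DMSO and 177, 142 and 82.5 with anlotinib. The lowest DMSO library held over 3 times the highest anlotinib library, and the log2 fold change was -2.31 (SE 0.21, limma adjusted p = 1.24e-05). GINS4, another subunit, had 645, 556 and 541 against 268, 179 and 178, with no overlap, 2.82-fold lower (limma adjusted p = 2.93e-05). GINS3 changed least of the group, from 262, 309 and 319 to 158, 123 and 119, or 2.23-fold lower (limma adjusted p = 0.000145). Its groups, too, were apart. GINS1 was 2.46-fold lower (limma adjusted p = 3.94e-05). CDC45, which holds GINS and MCM together, was 3.75-fold lower, with 170, 81.8 and 86.0 against 417, 352 and 440 (limma adjusted p = 0.000105).

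Among the polymerases and primase, 8 of 9 genes fell and the polymerase delta subunit POLD2 did not pass. POLD3, an accessory subunit of polymerase delta, had 593, 596 and 583 normalized counts with DMSO and 300, 274 and 264 with anlotinib. Replicates were tight in both groups, and the gene was 2.11-fold lower (log2 fold change -1.08, SE 0.10, limma adjusted p = 1.23e-05). POLE2, the second subunit of the leading-strand polymerase epsilon, had 199, 199 and 175 against 71.6, 53.2 and 66.5. These groups did not overlap either, at 2.98-fold lower (limma adjusted p = 2.9e-05). POLD2, which links the catalytic subunit of polymerase delta to the accessory ones (chromosome 7, 44114681 to 44124358), had 2512, 2476 and 2429 against 2662, 2073 and 1611. Anlotinib replicate 1 was above every DMSO library while the other anlotinib libraries were below, and the log2 fold change was -0.26 (interval -0.56 to 0.05, limma adjusted p = 0.218). Without anlotinib replicate 1 POLD2 passed at -0.44 (adjusted p = 0.00146). The catalytic subunits POLD1, POLE and POLA1 were 2.34-fold, 2.25-fold and 2.3-fold lower. Of the primer-making complex, PRIM1, the catalytic primase, was 2.75-fold lower, PRIM2, its large subunit, 1.99-fold lower, and POLA2, the second subunit of polymerase alpha, 3.02-fold lower (limma adjusted p from 4.39e-05 to 0.000535 for these 6 genes).

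All 6 genes of the clamp and its loader fell, by unequal amounts. RFC4, a small loader subunit, had 574, 575 and 539 normalized counts with DMSO and 316, 221 and 229 with anlotinib, 2.23-fold lower (limma adjusted p = 7.95e-05). RFC2, another small subunit, had 764, 629 and 645 against 373, 289 and 255, 2.24-fold lower (limma adjusted p = 9.71e-05). RFC5 and RFC3 were 2.18-fold and 1.87-fold lower (limma adjusted p = 9.71e-05 and 0.00108). RFC1, the large subunit, went from 848, 854 and 819 to 633, 601 and 557, or 1.41-fold lower (log2 fold change -0.50, SE 0.09, limma adjusted p = 0.00186). PCNA, the clamp and the gene with the most counts of the 40, was 1.39-fold lower, at 3262 ± 150 against 4520 ± 146 (SD, n = 3 per group, limma adjusted p = 0.00145). Both groups stayed apart for all 6 genes.

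RPA, which coats single-stranded DNA, showed the smallest decreases of any role, with a median of -0.48. RPA1, its large subunit, had 2473, 2521 and 2605 normalized counts with DMSO and 2095, 1783 and 1600 with anlotinib, 1.4-fold lower (limma adjusted p = 0.00461). RPA2 had 586, 576 and 524 against 494, 387 and 337, also 1.4-fold lower (limma adjusted p = 0.0197). RPA3, the smallest subunit, had 515, 516 and 423 against 398, 369 and 322, 1.33-fold lower (limma adjusted p = 0.0251). No anlotinib library reached a DMSO library in any of them. The calls of RPA2 and RPA3 were nevertheless lost without DMSO replicate 1 (adjusted p = 0.0853 and 0.107), without DMSO replicate 2 (adjusted p = 0.0741 and 0.108) and without anlotinib replicate 2 (adjusted p = 0.0838 and 0.077), and that of RPA3 also without anlotinib replicate 3 (adjusted p = 0.0574).

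Genes that finish lagging-strand fragments and rebuild chromatin fell as well. FEN1, the flap endonuclease (chromosome 11, 61792637 to 61797244), had 1663, 1589 and 1423 normalized counts with DMSO and 900, 584 and 571 with anlotinib, 2.32-fold lower (limma adjusted p = 0.000123). DNA2, a nuclease and helicase for long flaps, had 454, 344 and 399 against 211, 189 and 232, 1.88-fold lower (limma adjusted p = 0.000371). LIG1, the ligase that seals the fragments, had 1403, 1199 and 1105 against 1006, 713 and 624, 1.61-fold lower (limma adjusted p = 0.0067). The highest LIG1 value with anlotinib came close to the lowest with DMSO, and without DMSO replicate 1 its adjusted p was 0.0501. The CAF-1 subunits, which place histones behind the fork, fell more. CHAF1B had 564, 490 and 490 against 217, 184 and 177, 2.67-fold lower (limma adjusted p = 7.21e-06), the smallest p of the 40 genes. CHAF1A had 978, 777 and 882 against 412, 268 and 215, 3.04-fold lower (limma adjusted p = 8.2e-05).

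Fork protection genes spanned a wide range. CLSPN, encoding claspin, which couples the fork to the checkpoint kinase CHK1 (chromosome 1, 35720218 to 35769967), had 484, 488 and 487 normalized counts with DMSO and 167, 77.0 and 88.7 with anlotinib. DMSO libraries were nearly equal, and the log2 fold change was -2.21 (SE 0.22, limma adjusted p = 2.48e-05). WDHD1, the human AND-1 that ties polymerase alpha to the helicase, had 925, 837 and 859 against 381, 235 and 237, 3.15-fold lower (limma adjusted p = 1.85e-05). TIPIN had 362, 285 and 260 against 158, 191 and 184, 1.69-fold lower (limma adjusted p = 0.00257). Here anlotinib replicate 1 was the lowest library, unlike in most of the 40 genes. TIMELESS, the partner of TIPIN in the fork protection complex, was 1.75-fold lower, at 1121 ± 301 against 1919 ± 80.8 (SD, n = 3 per group, limma adjusted p = 0.00181).

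Per kb of merged exons, DMSO levels ran from 22.3 ± 5.45 normalized counts per kb for POLA2 to 3072 ± 99.3 for PCNA (SD, n = 3). This scale sets genes side by side only roughly, since it uses all annotated exons and not the length of the expressed transcript. ORC4 has the longest merged exons of the ORC genes, 8915 bases. In the ORC, ORC1 had the highest mean level with DMSO, 160 ± 20.3 per kb, and ORC4 the lowest, 58.0 ± 4.77 per kb. With anlotinib ORC1 was at 61.7 ± 11.6 per kb and ORC4 at 64.1 ± 5.64 per kb, which differ by less than their spread, and ORC5 had the highest mean, 113 ± 7.96 per kb. GINS2 went from 195 ± 10.1 to 40.9 ± 14.6 per kb, close to GINS4 at 38.1 ± 9.48 per kb, which had been at 106 ± 10.2. The small RFC subunits, at 188 to 307 per kb with DMSO, were above RFC1 at 125 ± 2.75. With anlotinib RFC4 and RFC5, at 85.1 ± 17.6 and 93.5 ± 17.5 per kb, were within the spread of RFC1 at 88.8 ± 5.66. The order RPA1, RPA2, RPA3 was the same in both groups, at 461, 278 and 150 per kb with DMSO and 333, 201 and 112 per kb with anlotinib.

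**Figure D3:**
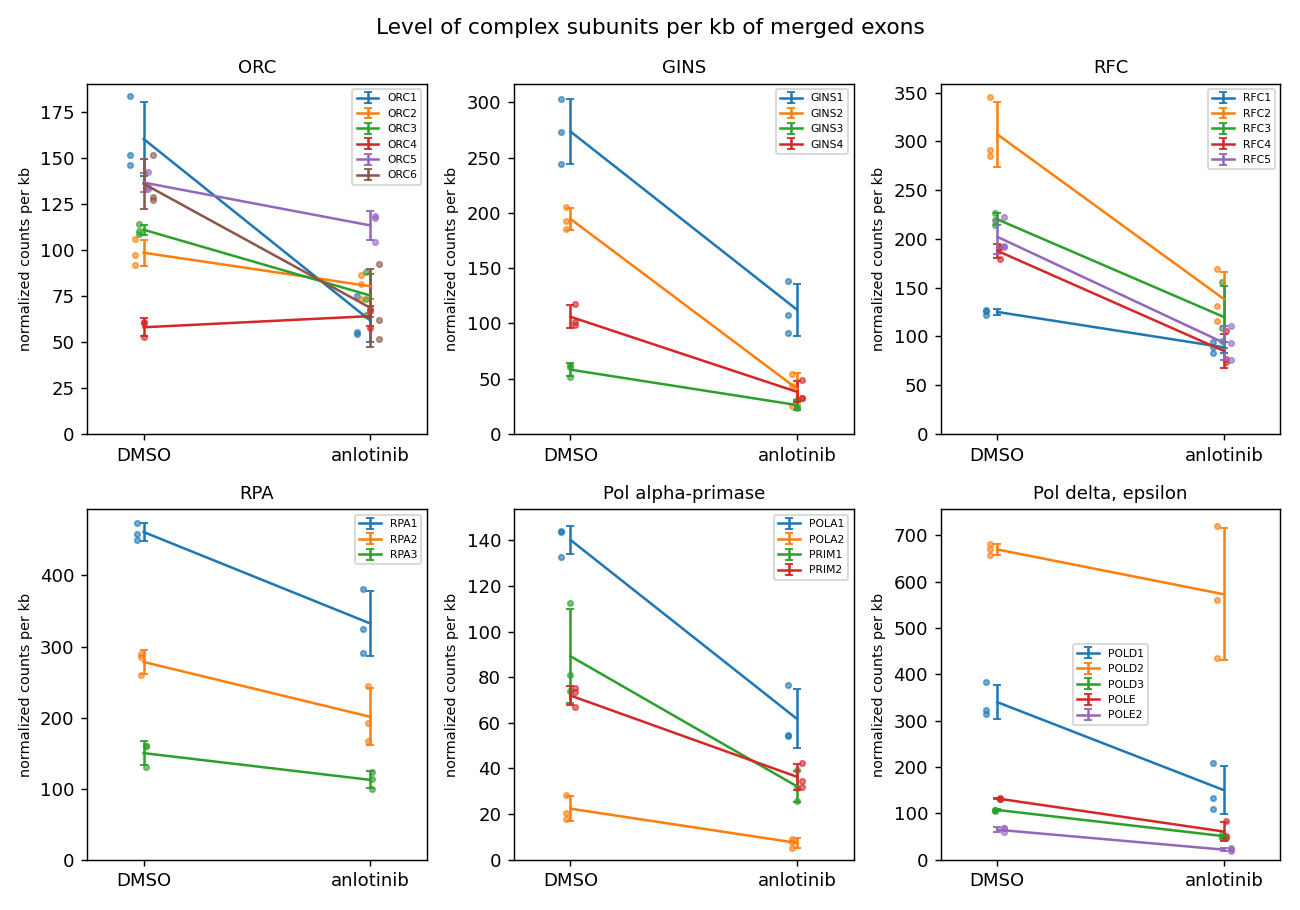
Normalized counts per kb of merged exons for subunits of 6 assemblies, with points for the libraries and lines joining group means (error bars SD, n = 3). Lines of ORC1 and ORC6 cross those of ORC2 and ORC3, and the RPA lines keep their order.

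Ratios of 2 genes within a library hardly depend on how libraries are scaled, and were taken for 16 pairs. The smallest two-sided p of the exact permutation test is 0.1 for 3 libraries against 3, so no pair could pass, and with adjustment over the 16 pairs the smallest value was 0.178. The log2 ratio of ORC1 to ORC2 was -0.37, -0.22 and 0.03 with DMSO and -0.85, -1.46 and -1.52 with anlotinib, a difference of -1.09 without overlap (exact permutation p = 0.1). That of CDC6 to ORC2 was 0.88, 1.12 and 1.12 against 0.24, -0.90 and -0.89, a difference of -1.56, again without overlap (exact permutation p = 0.1). The log2 ratio of CDT1 to GMNN, which encodes geminin, the inhibitor that binds CDT1 protein, was 1.39, 1.05 and 1.3 against 0.70, 0.06 and -0.45. These groups did not overlap, with a difference of -1.14 (exact permutation p = 0.1), and GMNN itself was 1.39-fold lower (limma adjusted p = 0.00715).

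Within complexes the ratio of GINS2 to GINS3 differed by -1.15, of POLD3 to POLD2 by -0.83 and of ORC6 to ORC2 by -0.73. That of PRIM1 to PRIM2 differed by -0.47 and that of RFC3 to RFC1 by -0.41. The ratio of FEN1 to LIG1, which are separate enzymes, differed by -0.53. Groups did not overlap for any of these ratios. The difference for RFC3 to RFC1 was -0.26 without anlotinib replicate 2. Groups overlapped for the ratios CDC45 to GINS4 (-0.41), POLE2 to POLE (-0.40), POLA2 to POLA1 (-0.39), CHAF1B to CHAF1A (0.19) and TIMELESS to TIPIN (-0.05). Most of these depended on single libraries. POLE2 to POLE was -0.23 without anlotinib replicate 1, and POLA2 to POLA1 was -0.23 without DMSO replicate 1 and -0.25 without anlotinib replicate 2. CHAF1B to CHAF1A was 0.36 without anlotinib replicate 1 and 0.04 without anlotinib replicate 3. TIMELESS to TIPIN ran from -0.34 without anlotinib replicate 1 to 0.13 without anlotinib replicate 3 and so changed sign. The ratio of PCNA to RFC1 differed by 0.02, at 2.43 ± 0.03 with DMSO and 2.45 ± 0.04 with anlotinib (SD, n = 3 per group, exact permutation p = 0.5). That of RPA2 to RPA1 was -2.17 ± 0.12 and -2.18 ± 0.08 (exact permutation p = 0.9), and its difference ran from -0.07 without DMSO replicate 3 to 0.04 without DMSO replicate 1.

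**Figure D4:**
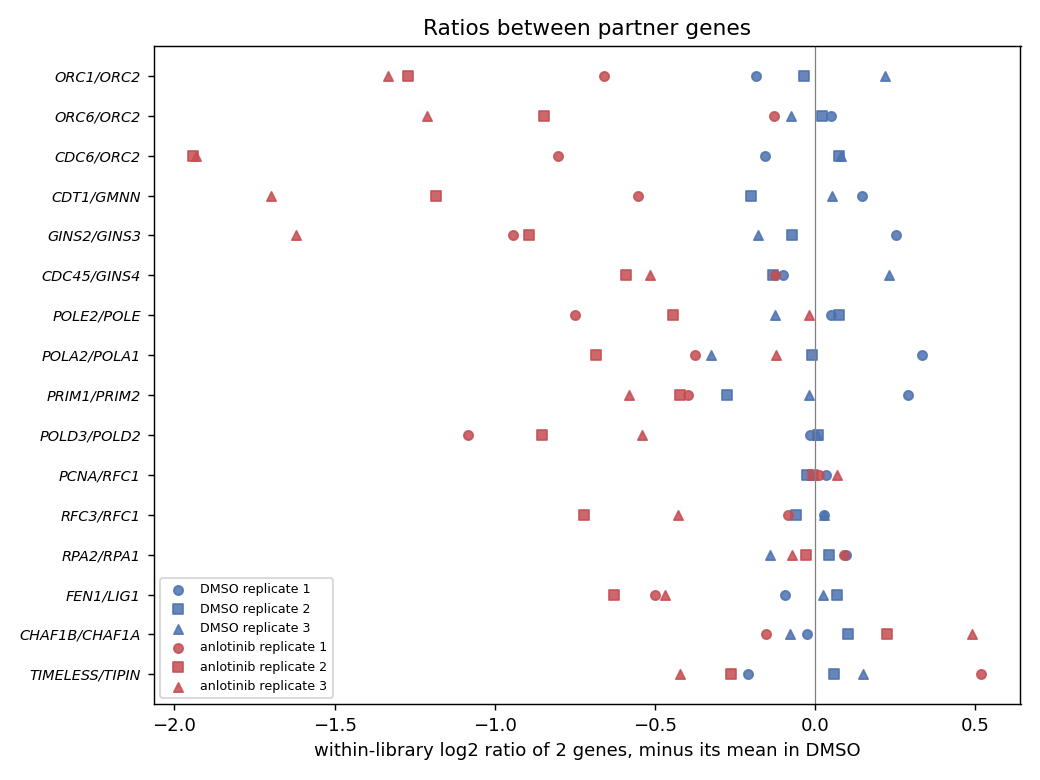
Within-library log2 ratio of 2 genes for 16 pairs, minus the mean of the DMSO libraries; colors and shapes as for the levels by library. CDC6/ORC2 has the largest difference, -1.56, and PCNA/RFC1 and RPA2/RPA1 scatter around 0.

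Promoter windows were compared because these genes moved together. RefSeq windows on GRCh38.p14, from 250 bases before to 50 after the start site, were matched by symbol for 35 of the 40 genes. An E2F-type motif (TTTCCCGC, TTTGGCGC, TTTCGCGC or TTTGCCGC, on either strand) was found in a window of 15 of these 35 genes, or 42.9%. The share was 6.46% among 10861 tested genes with a window and 3.31% of all 35116 windows. All 15 belonged to the 31 matched genes that fell, or 48.4% of them, and 0 of the 4 genes that did not pass held one. A set of 4 genes is too small to tell these shares apart, and the split was not tested. The share among all genes that fell was not counted. The CCAAT motif, bound by NF-Y, was present for 20 of 35, or 57.1%, against 42.5% of tested genes. The cell cycle homology region motif TTTGAA, known from promoters of mitotic genes, was present for 0 of 35, against 13.4% of tested genes. A match is a description of letters and not a binding site.

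Stretches of 100 bases near the start site are shown for 4 genes that fell and for the 4 that did not pass. The 4 that fell, among them GINS2, the steepest, hold an E2F-type motif wholly inside the stretch. The 4 that did not pass hold none. Each stretch was taken as close to the RefSeq start site as leaves at most 30 bases in an exon of GENCODE release 29. Genes that fell with no motif, or with a motif not wholly inside such a stretch, are not shown. Among the latter were CLSPN, with its motif starting at -5, and POLA1, at -137. Coordinates are on GRCh38.p14, sequences run 5′ to 3′ on the strand of the gene, and capitals mark the motif, which appears as its reverse complement where it lies on the other strand.

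GINS2, chr16:85688970-85689069, minus strand: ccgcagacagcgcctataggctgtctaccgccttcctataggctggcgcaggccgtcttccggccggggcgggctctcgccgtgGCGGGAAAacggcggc
POLE, chr12:132687343-132687442, minus strand: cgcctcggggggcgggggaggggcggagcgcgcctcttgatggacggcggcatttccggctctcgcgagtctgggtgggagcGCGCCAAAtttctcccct
TIPIN, chr15:66356687-66356786, minus strand: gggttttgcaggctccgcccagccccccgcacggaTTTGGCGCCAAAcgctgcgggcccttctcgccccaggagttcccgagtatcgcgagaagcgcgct
PCNA, chr20:5126623-5126722, minus strand: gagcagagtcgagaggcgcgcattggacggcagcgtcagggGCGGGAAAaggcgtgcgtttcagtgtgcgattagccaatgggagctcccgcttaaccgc
ORC2, chr2:200963661-200963760, minus strand: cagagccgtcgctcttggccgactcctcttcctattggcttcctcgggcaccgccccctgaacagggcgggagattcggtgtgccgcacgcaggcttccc
ORC4, chr2:148021575-148021674, minus strand: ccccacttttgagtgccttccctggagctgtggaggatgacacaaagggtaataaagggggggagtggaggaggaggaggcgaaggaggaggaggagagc
ORC5, chr7:104208018-104208117, minus strand: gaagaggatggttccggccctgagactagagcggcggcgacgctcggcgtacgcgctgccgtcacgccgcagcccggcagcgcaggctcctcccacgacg
POLD2, chr7:44123639-44123738, minus strand: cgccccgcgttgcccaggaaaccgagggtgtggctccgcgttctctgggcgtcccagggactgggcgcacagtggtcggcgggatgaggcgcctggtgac

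In GINS2 the motif began at -31 from the start site, in CDT1 at -35, in PCNA at -59, in POLA2 at -53, in POLE at -18 and in ORC3 at -12. TIPIN held the motif on both strands, at -66 and -62, overlapping. Those of LIG1, at -114, and POLA1, at -137, lay farther out. The size of the decrease varied widely among holders, from a log2 fold change of -2.31 for GINS2 to -0.47 for PCNA, and the genes without a match included CDC45 at -1.91 and WDHD1 at -1.65.

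Most other genes of the replication pathway fell too. MCM proteins were lower for 7 of 7 genes, with a median log2 fold change of -1.52. MCM6 and MCM4 had the smallest p, and MCM7, the largest p of the list, was 2.13-fold lower (limma adjusted p = 0.00029). Of 13 genes of origin firing and its control, 12 fell and 0 rose (median -0.80). TOPBP1, a scaffold for helicase activation, was 1.96-fold lower and CDK2, the S-phase kinase, 2.44-fold lower. DBF4, the activator of the kinase CDC7, stood at 0.11 (limma adjusted p = 0.488), while CDC7 itself was 1.89-fold lower (limma adjusted p = 0.000484). Nucleotide supply genes were lower for 8 of 9 genes (median -0.80), with the ribonucleotide reductase genes RRM2 and RRM1 2.4-fold and 2.15-fold lower and the kinase gene DCK at -0.26 (limma adjusted p = 0.117).

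Other fork and clamp genes were mixed, with 14 of 19 tested lower and 2 higher (median -0.53). UHRF1, which binds hemimethylated DNA behind the fork, was 5.01-fold lower and DSCC1, a subunit of an alternative clamp loader, 2.44-fold lower, whereas CHTF8, a partner of DSCC1, stood at -0.02 (limma adjusted p = 0.917). The genes that rose were RAD17, a checkpoint clamp loader, at 0.37, and ASF1A, a histone chaperone, at 0.42, both named after their values were seen (limma adjusted p = 0.0393 and 0.0452). ASF1B, its paralog, was 2.41-fold lower (limma adjusted p = 0.00183). Of 11 replication checkpoint genes, 8 fell and 1 rose (median -0.76), with BRCA1 2.69-fold and FANCD2 2.54-fold lower, and the kinase gene ATR at -0.20 (limma adjusted p = 0.154). HUS1, of the checkpoint clamp, was the one that rose, at 0.39 (limma adjusted p = 0.0352).

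Fewer genes passed in the lists of mitosis and of E2F and RB factors. Of 15 mitosis genes 6 fell and 0 rose (median -0.43), with CDK1 3.28-fold and CENPF 1.93-fold lower and PTTG1, encoding securin, at 0.04 (limma adjusted p = 0.87). Anlotinib replicate 1 held the highest of the 3 anlotinib values for all 15 mitosis genes. The 9 that did not pass stood at -0.01 to 0.48 against the DMSO mean in that library, on the log2 scale. Averaged over anlotinib replicates 2 and 3, they stood at -0.70 to 0.05. Whether the mitosis list differs from the origin and fork genes was not tested. Of 13 E2F and RB factors 6 fell and 2 rose (median -0.32). RBL1, encoding the pocket protein p107, was 3.26-fold lower and E2F1, an activating E2F, 3.91-fold lower, while E2F3 stood at 0.04 (limma adjusted p = 0.802). CDKN1A, the inhibitor p21, rose by 1.47 on the log2 scale (limma adjusted p = 4.81e-06). The other that rose was CCND1, encoding cyclin D1, by 0.31 (limma adjusted p = 0.0314). Over the 87 tested genes of the 7 lists, 61 fell and 5 rose.

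**Figure D5:**
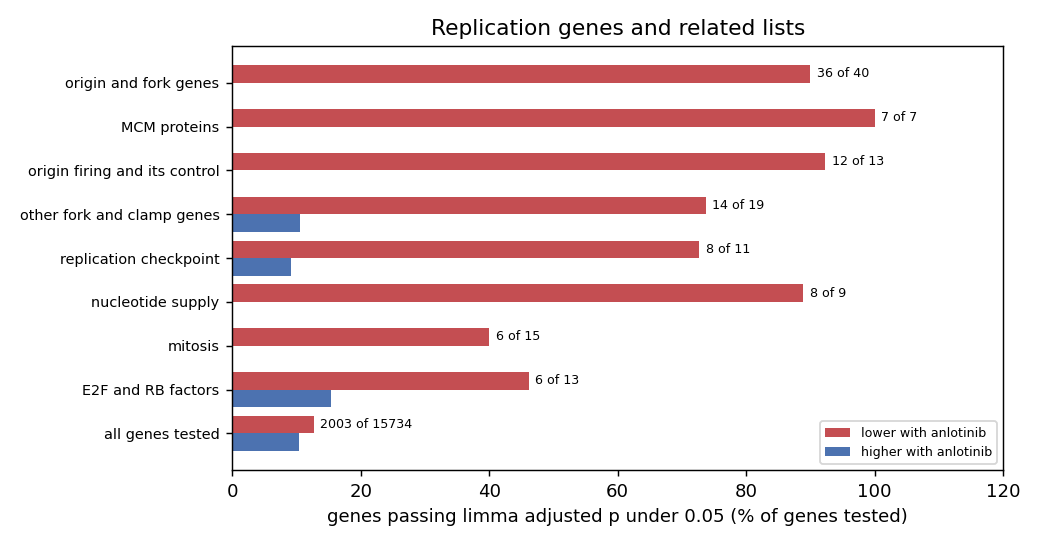
Share of tested genes that were lower (red) or higher (blue) with anlotinib at a limma adjusted p under 0.05, for the origin and fork genes, the 7 related lists and all genes tested; the x axis is in percent. Red bars reach 90% for the origin and fork genes and 40% for the mitosis list, against 12.7% for all genes.

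Some of the counts share sequence with other genes. POLA2 shares 35.1% of its exonic bases with AP000944.2 on the same strand, which had a mean of 13.9 normalized counts. FEN1 overlaps the more abundant FADS2 on the same strand over 49 bases and TMEM258 on the opposite strand over 166 bases, and PRIM1 overlaps NACA on the same strand over 33 bases. Others overlap expressed genes too, among them CHAF1B with MORC3 on the same strand over 89 bases. On the opposite strand, ORC4 overlaps ACVR2A over 430 bases and MBD5 over 157, and RFC5 overlaps WSB2 over 186. Whether counting used strand is not stated, and reads from these stretches cannot be assigned with certainty.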

How the data were processed

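Per the labels' protocols, Trizol was used to extract RNA and a SMARTer mRNA-Seq kit to build libraries. No source used here gives the aligner, the counting tool or the strand setting. A mouse build, mm9, is named in the submitters' processing notes, but the table holds human identifiers whose positions all equal GENCODE release 29 on GRCh38 (30483 of 30483). The expression values are a signal that the authors deposited, that is, reads over 1 library-wide size factor: 100% are whole multiples of 1 step per library, within 1e-06. The authors' table also holds their log2 fold change and their p-value and adjusted p-value. 5 further files repeat single libraries with identical values.

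limma-trend (limma 3.58.1, R 4.3.3) was fitted to log2(normalized count + 1) with 1 term, treatment, for all 15734 genes with a mean of at least 10, with Benjamini-Hochberg adjustment at 0.05. Fold changes are on that scale, which understates changes of low genes. edgeR 4.0.16 on the recovered whole reads called 36 of the 40 genes lower and 0 higher (all genes, 11.8% lower and 11.9% higher). It and DESeq2 1.42.0, with the other alternatives in the closing section, were not the main test because the files hold normalized values. limma was tested on simulated data. Ratios used exact two-sided permutation tests. Motifs were searched with Python 3.11.15. The rule for named genes gave values in every library for the 2 smallest and the largest p in each role, and in each related list named the same 3 places; other names were chosen after their values were seen. Genes, lists, pairs and motifs were chosen with earlier results of these data known. No sample was left out.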

Additional observations from a re-analysis of the deposited data

How the results depend on the processing

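Of the 40 genes, 34 had the same call under all 16 alternatives: pseudocounts 0.5 and 5, minimum means of 1 and 50 and no filter, TMM and library-total scaling, edgeR, DESeq2, a replicate block and leaving out each library. The number that fell was 36 under every alternative except TMM scaling (37) and leaving out a library (33 to 38), and 0 rose in any. No direction was reversed for a gene. Over all genes tested the number called was 3648, and from 1979 to 5473 without 1 library: 1979 without anlotinib replicate 2, 2288, 2259 and 2313 without DMSO replicates 1, 2 and 3, and 5473 without anlotinib replicate 1. The fits that leave out a library keep the same 15734 genes. Scaling by library totals gave 1552 lower and 2068 higher genes against 2003 and 1645, and 36 of the 40 genes still fell. Several ratios between genes depended on 1 library. Without 1 library the difference was -0.57 to -0.26 for RFC3 to RFC1, -0.60 to -0.23 for POLE2 to POLE, -0.55 to -0.23 for POLA2 to POLA1, 0.04 to 0.36 for CHAF1B to CHAF1A, -0.34 to 0.13 for TIMELESS to TIPIN, -0.07 to 0.04 for RPA2 to RPA1 and 0.00295 to 0.04 for PCNA to RFC1. It was -1.03 to -0.49 for ORC6 to ORC2 and -1.94 to -1.37 for CDC6 to ORC2. Of the pseudocounts, 5 moved POLA2 to POLA1 most, from -0.39 to -0.31.

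Over all genes tested, libraries with the same replicate number did not deviate together (r across genes of -0.0407, 0.0259 and -0.00286). For the 40 genes, summed counts fell from replicate 1 to 2 to 3 in both groups. They were 38571, 35896 and 35724 with DMSO and 24502, 19169 and 17547 with anlotinib. Whether the numbers pair the libraries for these genes was not tested. With the replicate block 3552 genes were called, 36 of the 40 genes fell and 0 rose. Having 3 libraries a group limit the ratios to a smallest p of 0.1. The depth limits POLA2 most, with 31 to 152 reads in a library.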
